A study of Homo sapiens with 4 samples.

Results

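Interferon-stimulated genes were followed in ACHN, an established line of human renal cell carcinoma, after silencing of PRR11. A list of 43 classical interferon-induced effectors and factors of the STAT and IRF families, chosen by name and without RNA sensors and antigen presentation genes, was looked up in a count table of 36359 genes, and all 43 had a row. ACHN cells received either control siRNA (siNC, 2 libraries) or siRNA against PRR11 (siPRR11, 2 libraries) with a lipid reagent, and RNA-seq reads were counted per gene. Untransfected and interferon-treated cells were not analysed here. The labels do not give the time after transfection, which siPRR11 duplex each library received or whether the libraries of a group came from separate cultures, so p-values measure the spread between these libraries. Because the groups received different siRNA, the loss of PRR11 and the change of siRNA cannot be told apart.

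Type I and type III interferons are secreted proteins that cells make when they sense viral or other foreign nucleic acid, double-stranded RNA included. Their receptors activate the kinases JAK1 and TYK2, which phosphorylate STAT proteins, and STAT2 joins IRF9 in the factor ISGF3. ISGF3 binds the interferon-stimulated response element (ISRE) in front of its target genes, whose products block viral entry, translation, replication or release. Many of these genes keep a basal level in tumor cells without added interferon.

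Counted reads lay between 59003839 and 92612749 per library, and interferon-stimulated genes took between 0.12% and 0.152% of them. Levels below are CPM, gene counts relative to the TMM-normalized total of each library. Where genes are compared with each other they are RPKM, counts over exonic length and the library total without the TMM factor. Differences were tested by the quasi-likelihood method of edgeR, and p-values were adjusted after Benjamini and Hochberg over the 21630 genes that had enough counts. PRR11 itself was at 41.3 and 40.4 CPM in siNC and at 15.31 and 14.02 CPM in siPRR11 cells, so 35.9% of its mRNA remained by the fitted fold change. Of 11 markers of renal epithelium and carcinoma, all tested, 45.5% passed, against 16.7% of all genes: KRT18 (log2 fold change 0.36) and CDH1 (0.54) rose, and KRT19 (-0.70), EPCAM (-0.65) and LHX1 (-0.55) fell. The renal factor PAX8 was at 253 to 375 CPM and keratin KRT8 at 1169 CPM or more in every library. The 6 leukocyte markers summed to 46.3 to 57.6 CPM in siNC and 55.6 to 61.1 CPM in siPRR11 libraries, nearly all of it CD68, while PTPRC and CD3E had 10 and 2 counts over all libraries together. The single marker of plasmacytoid dendritic cells with a row, IL3RA, summed to at most 1.14 CPM in any library, and the 3 endothelial markers to at most 0.424 CPM. The 4 fibroblast markers summed to 43.4 to 50.1 CPM in siNC and 76.5 to 96.9 CPM in siPRR11 libraries, nearly all of it COL1A1, which rose (log2 fold change 0.90, edgeR adjusted p = 0.000329), while COL1A2 and LUM had 58 and 8 counts in all. The part of these markers in the results below was not tested, and in RNA from whole cultures fewer expressing cells and less RNA per cell cannot be told apart.

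Of the 43 genes, 42 had enough counts for the test, and MX2, with 32 counts over the 4 libraries, had not. In siPRR11 cells 14 genes rose, 1 fell and 27 did not pass an adjusted p-value of 0.05. The 14 genes that rose were 33.3% of those tested, against 7.61% of all genes tested, and the gene that fell, IFIT5, is to be read against 9.14% of all genes. In either direction 35.7% of the interferon-stimulated genes passed, against 16.7% of all genes. The list was chosen with earlier results of these data known, so these shares describe it and were not tested. The median log2 fold change of the 42 genes was 0.23, against 0.00224 over all genes tested, and 35 of them (83.3%) had a log2 fold change above 0, against 50.3% of all genes. Both siPRR11 libraries lay above both siNC libraries for 27 genes and below them for 4, and the groups overlapped for 11. The 31 genes without overlap were 73.8% of those tested, against 58.4% of all genes. The count of 14 rested in part on siPRR11 replicate 1: without this library 8 genes rose, and STAT2, OAS1, OAS3, UBE2L6, HERC6 and SAMD9L no longer passed. On the log2(RPKM + 1) scale limma called 9 genes higher and none lower, with 21 and 1 at an unadjusted p-value under 0.05. Over all genes limma called 61.5% of its changes higher, against 45.4% by edgeR. RPKM holds no TMM factor, and the median log2 fold change over all genes tested was 0.0206 by limma, against 0.00224 by edgeR.

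**Figure D1:**
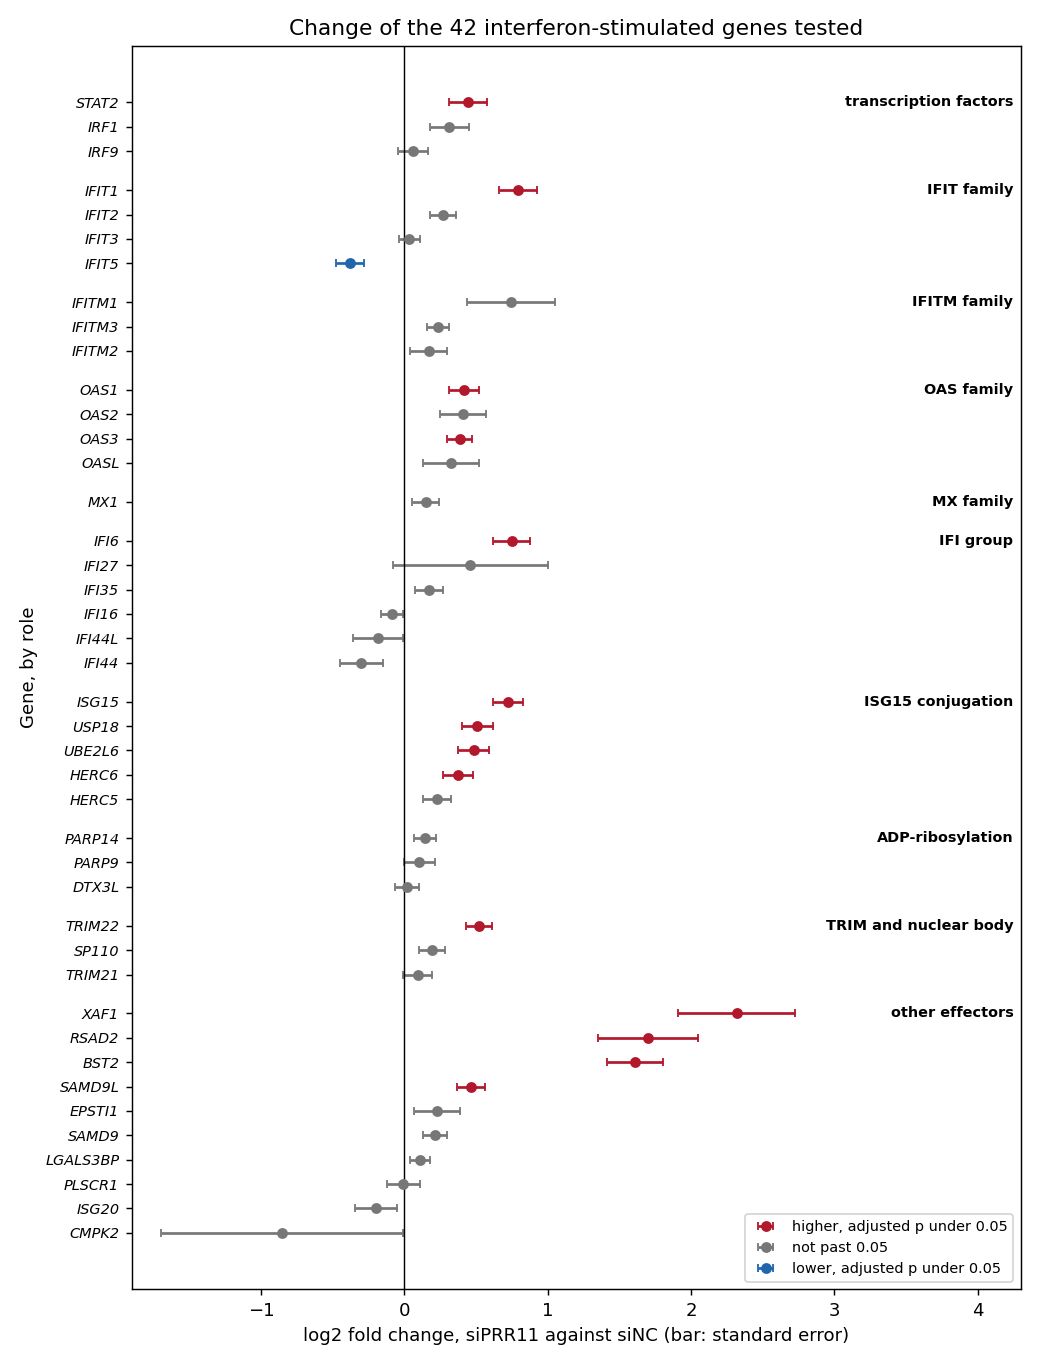
The log2 fold change of siPRR11 against siNC (horizontal axis, bar: standard error, 2 libraries per group) is plotted for the 42 genes tested, ordered by role. The 14 genes that rose (red) lie between 0.37 and 2.32, IFIT5 (blue) lies at -0.38, and the 27 other genes (grey) lie between -0.85 and 0.74.

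Most rises were small. The 14 genes rose by 0.37 to 2.32 on the log2 scale, and 11 of them by less than 1. Only XAF1, RSAD2 and BST2 exceeded 1, which is 3 of 42 genes, where 1.88% of all genes tested passed with a change of at least 1 in either direction. The summed level of all 43 genes was 1317 and 1225 CPM in siNC and 1497 and 1404 CPM in siPRR11 libraries, a ratio of means of 1.14. Both siPRR11 libraries stood above both siNC libraries in this sum, and the ratio was 1.16 without the abundant LGALS3BP.

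The promoters were examined for the ISRE, since ISGF3 acts through it. RefSeq windows of 300 bases (GRCh38.p14, from 250 bases before to 50 bases after the annotated start site) were held for 36 of the 43 genes, and none for IFIT2, IFITM2, OAS2, OASL, MX2, USP18 and TRIM22. The ISRE core searched was GAAA, then NN for any 2 bases, then GAAA, on either strand, and overlapping matches were counted separately. It was found in 22 of the 36 windows (61.1%), against 3.57% of 35116 windows of all genes. The core of the gamma-activated site (GAS), TTCNNNGAA, which reads alike on both strands, was found in 10 windows (27.8%), against 7.66% of all windows. A match is a run of letters and was not tested for binding.

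Windows of 3 neighbours in the IFIT cluster on chromosome 10 are shown because these genes carried a rise, no call and a fall. Capitals mark the ISRE core, here in its reverse complement, and each line reads 5′ to 3′ on the strand of the gene.
IFIT1, chr10:89392373-89392672, plus strand: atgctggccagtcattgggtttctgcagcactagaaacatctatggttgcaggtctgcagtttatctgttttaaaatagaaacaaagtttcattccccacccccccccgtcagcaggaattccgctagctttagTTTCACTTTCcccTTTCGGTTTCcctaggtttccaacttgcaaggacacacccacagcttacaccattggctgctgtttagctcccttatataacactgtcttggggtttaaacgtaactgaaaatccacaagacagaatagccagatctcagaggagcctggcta
IFIT3, chr10:89327747-89328046, plus strand: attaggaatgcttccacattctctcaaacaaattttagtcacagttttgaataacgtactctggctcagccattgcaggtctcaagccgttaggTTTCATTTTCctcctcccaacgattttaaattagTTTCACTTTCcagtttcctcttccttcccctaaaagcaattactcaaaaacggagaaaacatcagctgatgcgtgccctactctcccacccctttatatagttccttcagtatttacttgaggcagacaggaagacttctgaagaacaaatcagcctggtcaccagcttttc
IFIT5, chr10:89414318-89414617, plus strand: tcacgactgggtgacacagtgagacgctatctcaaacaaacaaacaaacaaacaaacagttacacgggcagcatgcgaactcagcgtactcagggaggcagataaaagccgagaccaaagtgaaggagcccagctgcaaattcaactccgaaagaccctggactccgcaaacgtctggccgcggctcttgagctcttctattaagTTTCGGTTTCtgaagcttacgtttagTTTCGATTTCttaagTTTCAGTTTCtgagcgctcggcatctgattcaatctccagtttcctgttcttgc
The IFIT1 and IFIT3 windows each held 2 matches and the IFIT5 window 3, with starts 116 and 103 bases before the start site in IFIT1, 156 and 122 in IFIT3 and 45, 19 and 4 in IFIT5.

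Stretches of 30 bases around a match are shown for the other genes that rose and held one, with the core in capitals.
ISG15, chr1:1013380-1013409, plus strand: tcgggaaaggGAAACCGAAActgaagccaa
BST2, chr19:17405741-17405770, minus strand: tcctttctggGAAACTGAAActgaaaacct
IFI6, chr1:27672288-27672317, minus strand: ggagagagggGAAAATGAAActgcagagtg
OAS3, chr12:112938321-112938350, plus strand: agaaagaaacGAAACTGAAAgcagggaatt
ISG15 and BST2 each held 2 overlapping matches, IFI6 held 3 and OAS3 held 2. Of the 22 genes with a match, all of them tested, 5 rose and 1 fell, with a median log2 fold change of 0.18 and a range from -0.38 to 1.61. Of the 14 genes with a window and no match, 7 rose and none fell at the threshold by edgeR, with a median of 0.34 and a range from -0.85 to 2.32. Over all genes tested, 7.61% rose and 9.14% fell. USP18 and TRIM22, which also rose, had no window and were in neither set. Whether the change differs between these sets was not tested. The windows of XAF1 and RSAD2 held no match to these letters.

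**Figure D2:**
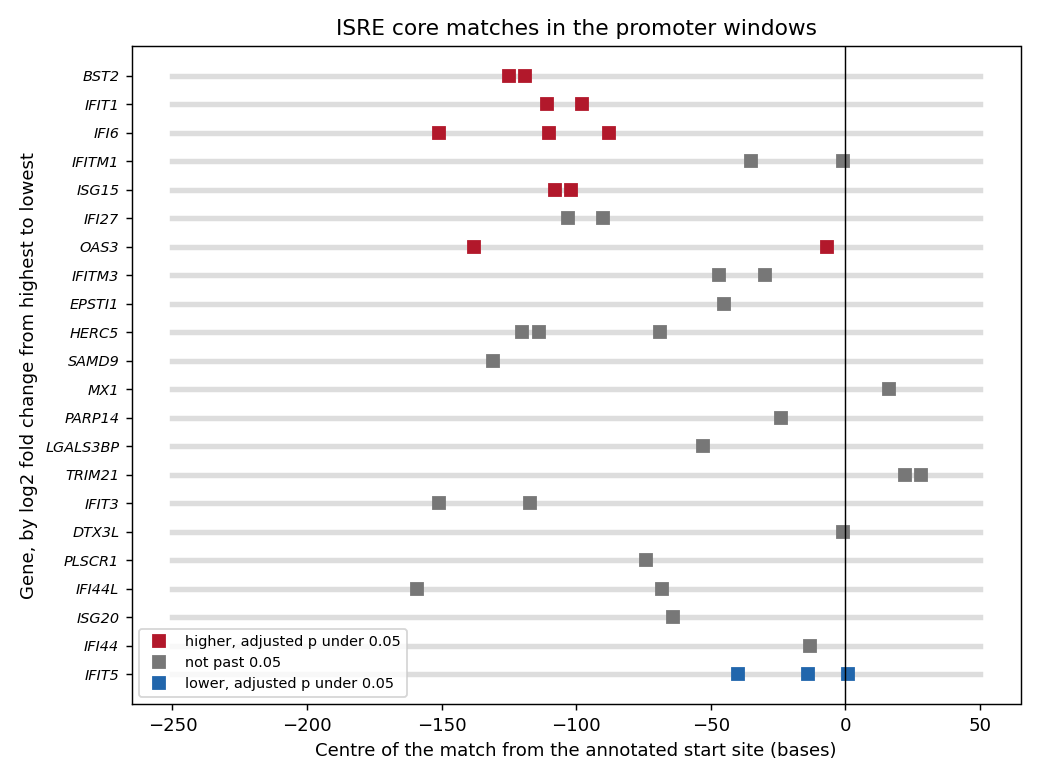
Squares mark the centre of each ISRE core match in bases from the annotated start site (horizontal axis, 0 is the start site) for the 22 genes with a match, and grey bars span the window from 250 bases before to 50 after it. The genes that rose (red) are BST2, IFIT1, IFI6, ISG15 and OAS3, the gene that fell (blue) is IFIT5, and 16 genes with matches did not pass (grey).

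Among the factors that read out the interferon signal, STAT2 rose and IRF1 and IRF9 did not pass. STAT2, the ISGF3 subunit with the transactivation domain (chromosome 12 of GRCh38, 56341597 to 56360155), was at 28.6 and 21.5 CPM in siNC and 37.3 and 31.0 CPM in siPRR11 libraries. The groups did not overlap, but the siNC libraries lay further apart than siNC replicate 1 lay from siPRR11 replicate 2. Its log2 fold change was 0.45 (standard error 0.131, edgeR adjusted p = 0.0375), and it was 0.67 without siNC replicate 1 and 0.25 without siNC replicate 2 (edgeR adjusted p = 0.103), and the call was also lost without siPRR11 replicate 1 (edgeR adjusted p = 0.183). IRF9, the DNA-binding subunit of ISGF3, was at 39.8 and 32.1 CPM in siNC and 39.3 and 35.9 CPM in siPRR11 libraries, a log2 fold change of 0.06 (standard error 0.106). On the same strand, 48.4% of IRF9's exonic bases belong to another gene as well, so its value is uncertain. IRF1, a factor induced by interferons that also drives part of their program, was at 32.4 and 24.4 CPM in siNC and 39.4 and 31.3 CPM in siPRR11 libraries. Its groups overlapped, and its log2 fold change of 0.31 had an edgeR adjusted p of 0.147, but it passed without siNC replicate 1 or without siPRR11 replicate 2.

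The IFIT proteins bind foreign RNA and hinder its translation, and their 4 genes lie within one cluster on chromosome 10. Of these, 1 rose, 1 fell and 2 did not pass, where 7.61% of all genes tested rose and 9.14% fell. IFIT1, which recognizes RNA caps that lack 2'-O-methylation (89392546 to 89406486), was at 19.3 and 14.4 CPM in siNC and at 31.4 and 27.1 CPM in siPRR11 libraries. It rose by 0.79 on the log2 scale (standard error 0.131, edgeR adjusted p = 0.0018), or 1.73-fold, and by 0.60 to 1.02 with each library left out. IFIT5 (89414586 to 89421001), which begins 8099 bases after the end of IFIT1, was at 19.1 and 18.2 CPM in siNC and at 14.77 and 13.98 CPM in siPRR11 libraries. IFIT5 fell by 0.38 on the log2 scale (standard error 0.0957, edgeR adjusted p = 0.019), with no overlap between the groups. The fall kept its size without siPRR11 replicate 1 (-0.42) or siPRR11 replicate 2 (-0.34), but its edgeR adjusted p was then 0.081 and 0.173. IFIT3, the partner that stabilizes IFIT1, was the most abundant of the family at a mean of 20.4 RPKM in siNC. Its libraries lay close together, at 54.8 and 55.0 CPM in siNC and 55.9 and 56.6 CPM in siPRR11 cells, a log2 fold change of 0.04 (standard error 0.0758). IFIT2 was at 20.9 and 21.6 CPM in siNC and 24.8 and 26.4 CPM in siPRR11 libraries (log2 fold change 0.27, edgeR adjusted p = 0.0636).

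Among 5 genes grouped under ISG15 conjugation, with HERC6 as a relative of a ligase, 4 rose, where 7.61% of all genes tested did. Without siPRR11 replicate 1 the count was 2, without siNC replicate 1 or siPRR11 replicate 2 it was 3, and all 5 genes kept a positive log2 fold change in these fits. ISG15, a ubiquitin-like protein that is attached to other proteins or secreted (chromosome 1, 1001138 to 1014541), was at 19.9 and 16.8 CPM in siNC and 31.7 and 28.9 CPM in siPRR11 libraries. The groups were well apart, and ISG15 rose by 0.72 on the log2 scale (standard error 0.105, edgeR adjusted p = 0.000877). UBE2L6, the conjugating enzyme for ISG15 (chromosome 11, 57551656 to 57568284), was at 15.1 and 13.1 CPM in siNC and 20.7 and 18.8 CPM in siPRR11 libraries and rose by 0.48 (standard error 0.107, edgeR adjusted p = 0.00923). USP18, which removes ISG15 from proteins and also damps the type I interferon receptor (chromosome 22, 18149899 to 18177397), was at 9.74 and 8.55 CPM in siNC and 12.9 and 13.2 CPM in siPRR11 libraries. It rose by 0.51 (standard error 0.11, edgeR adjusted p = 0.00833), and its reads could be shared with its close copy USP41. HERC6 (chromosome 4, 88378739 to 88443111), a relative of the main human ISG15 ligase HERC5, was at 9.69 and 10.45 CPM in siNC and at 13 CPM in both siPRR11 libraries. Its rise of 0.37 (standard error 0.104, edgeR adjusted p = 0.0302) did not pass without siNC replicate 1 or without either siPRR11 library, where it was 0.31 to 0.38. HERC5 itself, 14005 bases away, was at 15.05 and 16.56 CPM in siNC and 19.0 and 17.9 CPM in siPRR11 libraries (log2 fold change 0.23, edgeR adjusted p = 0.144).

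The 4 OAS genes encode sensors of double-stranded RNA that switch on RNase L, apart from OASL, which lacks this activity. OAS1 and OAS3 rose, where 7.61% of all genes tested did, and OAS2 and OASL did not pass. OAS1 (chromosome 12, 112906777 to 112933222) was at 11.2 and 10.0 CPM in siNC and 13.9 and 14.5 CPM in siPRR11 libraries, a log2 fold change of 0.42 (standard error 0.106, edgeR adjusted p = 0.0193) that passed only in the fit without siNC replicate 1 among the 4 that left out a library. OAS3 (112938352 to 112973249) was at 37.7 and 35.9 CPM in siNC and 50.8 and 45.4 CPM in siPRR11 libraries, a log2 fold change of 0.39 (standard error 0.087, edgeR adjusted p = 0.0103). OAS2, next to OAS3, was at 2.35 CPM in both siNC libraries and at 3.15 and 3.09 CPM in siPRR11 libraries. Its log2 fold change of 0.41 was of the size of the others, and with 889 counts over all libraries its standard error was 0.162 (edgeR adjusted p = 0.111). OASL, which lies elsewhere on the chromosome, was at 2.08 and 1.69 CPM in siNC and 2.57 and 2.17 CPM in siPRR11 libraries, with a log2 fold change of 0.32 (edgeR adjusted p = 0.295). The groups did not overlap for any of the 4 genes, which also held for 58.4% of all genes tested.

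BST2, or tetherin, which holds budding virus at the cell surface (chromosome 19, 17402939 to 17405648), was at 1.03 and 0.931 CPM in siNC and at 2.95 and 3.06 CPM in siPRR11 libraries. Its fold of 3.05 (log2 fold change 1.61, standard error 0.194, edgeR adjusted p = 0.000281) had the lowest adjusted p of the 43 genes, and it stayed between 1.54 and 1.69 on the log2 scale with each library left out. RSAD2, or viperin, an enzyme that makes a chain-terminating nucleotide (chromosome 2, 6865806 to 6898239), had 36 and 12 counts in siNC and 108 and 89 in siPRR11 libraries, or 0.44, 0.207, 1.15 and 1.04 CPM. It rose by 1.70 (standard error 0.352, edgeR adjusted p = 0.00665), by 2.39 without siNC replicate 1 and by 1.31 without siNC replicate 2. CMPK2, the nucleotide kinase whose gene overlaps the start of RSAD2 on the other strand, stayed near 0 with 6, 12, 2 and 11 counts in the same order of libraries. Its log2 fold change of -0.85 had a standard error of 0.844. IFI6, a membrane protein of the endoplasmic reticulum and mitochondria (chromosome 1, 27666061 to 27672218), was at 4.16 and 4.45 CPM in siNC and at 7.20 and 7.25 CPM in siPRR11 libraries. It rose by 0.75 (standard error 0.127, edgeR adjusted p = 0.00217).

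The 3 genes of the IFITM proteins, which block fusion of viral and cell membranes, did not pass by edgeR, except IFITM3 when at least 10 counts in every library were required (edgeR adjusted p = 0.0429) or the replicate number was a term. IFITM3 was at 46.0 and 45.6 CPM in siNC and 54.1 and 53.7 CPM in siPRR11 libraries, a log2 fold change of 0.23 (standard error 0.0769) with an edgeR adjusted p of 0.0573. The groups were apart by more than their spread. Limma on log2(RPKM + 1), which holds no TMM factor, gave IFITM3 a log2 fold change of 0.28 with a limma adjusted p of 0.039. IFITM2 was at 6.28 and 7.59 CPM in siNC and 7.54 and 8.02 CPM in siPRR11 libraries, and these groups overlapped. IFITM1, with 250 counts in all, changed in the fit by 0.74 on the log2 scale (standard error 0.308, edgeR adjusted p = 0.127), which did not pass. IFITM1 and IFITM2 share exonic bases of the same strand (32.5% of IFITM1 and 22.7% of IFITM2), and IFITM2 and IFITM3 are close copies, so the division of reads among them is uncertain. At an unadjusted p-value under 0.05, 2 of the 3 genes were higher by edgeR and 1 by DESeq2, while 1 passed after adjustment by limma. At this unadjusted threshold 3110 of all 21630 genes tested were higher by edgeR.

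XAF1, an antagonist of the apoptosis inhibitor XIAP (chromosome 17, 6755447 to 6775647), showed the highest fold of the list from one of its lowest levels. It had 12 and 10 counts in siNC and 90 and 54 in siPRR11 libraries, or 0.147, 0.172, 0.955 and 0.631 CPM. The fold was 4.99 (log2 fold change 2.32, standard error 0.409, edgeR adjusted p = 0.00267), and it lay between 1.99 and 2.58 on the log2 scale with each library left out. On the log2(RPKM + 1) scale, which compresses so low a gene, its change was 0.13 (limma adjusted p = 0.0856). A gene of the other strand, RP11-609D21.3, covers 38.3% of the exonic bases of XAF1, and it was also higher, at 0.122 and 0.172 CPM in siNC and 0.753 and 0.327 CPM in siPRR11 libraries. The paper describes a stranded library preparation, but the use of strand in counting is not stated. Whether the reads of these genes were told apart in the shared bases is therefore not known.

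**Figure D3:**
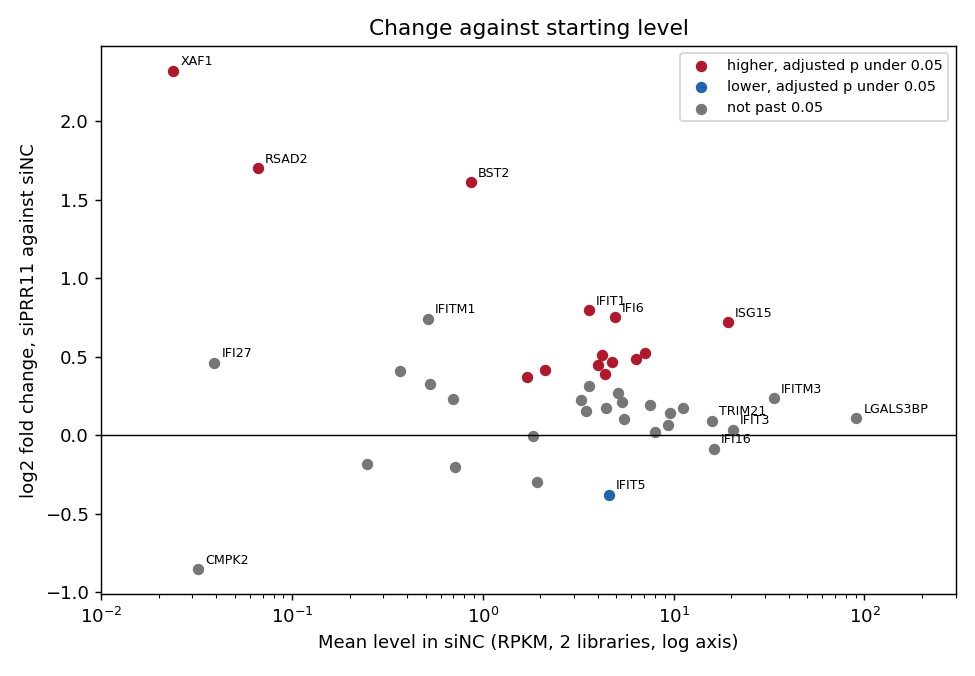
The log2 fold change of the 42 tested genes (vertical axis) is plotted against their mean RPKM in the 2 siNC libraries (horizontal log axis). XAF1, RSAD2 and BST2 combine a low starting level, under 1 RPKM, with the largest rises, while LGALS3BP and IFITM3, the most abundant, lie at 0.11 and 0.23.

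The nuclear and cytosolic TRIM proteins and SP110 gave 1 rise, where 7.61% of all genes tested rose. TRIM22, an E3 ligase that restricts viral transcription (chromosome 11, 5689689 to 5737089), was at 44.6 and 42.4 CPM in siNC and 67.6 and 57.3 CPM in siPRR11 libraries. It rose by 0.52 (standard error 0.0923, edgeR adjusted p = 0.00275), and the groups were well apart. TRIM21, a cytosolic antibody receptor, was at 32.8 and 29.3 CPM in siNC and 35.5 and 30.7 CPM in siPRR11 libraries, with overlapping groups. SP110, a nuclear body protein, was at 56.6 and 48.3 CPM in siNC and 62.7 and 57.2 CPM in siPRR11 libraries (log2 fold change 0.19, edgeR adjusted p = 0.187). SAMD9L, which restrains translation (chromosome 7, 93130055 to 93148369), was at 35.7 and 33.3 CPM in siNC and 52.0 and 43.3 CPM in siPRR11 libraries and rose by 0.47 (standard error 0.099, edgeR adjusted p = 0.00771). Its neighbour SAMD9, 12031 bases away, was at 38.2 and 36.3 CPM in siNC and 45.1 and 41.3 CPM in siPRR11 libraries, a log2 fold change of 0.21 (edgeR adjusted p = 0.111).

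**Figure D4:**
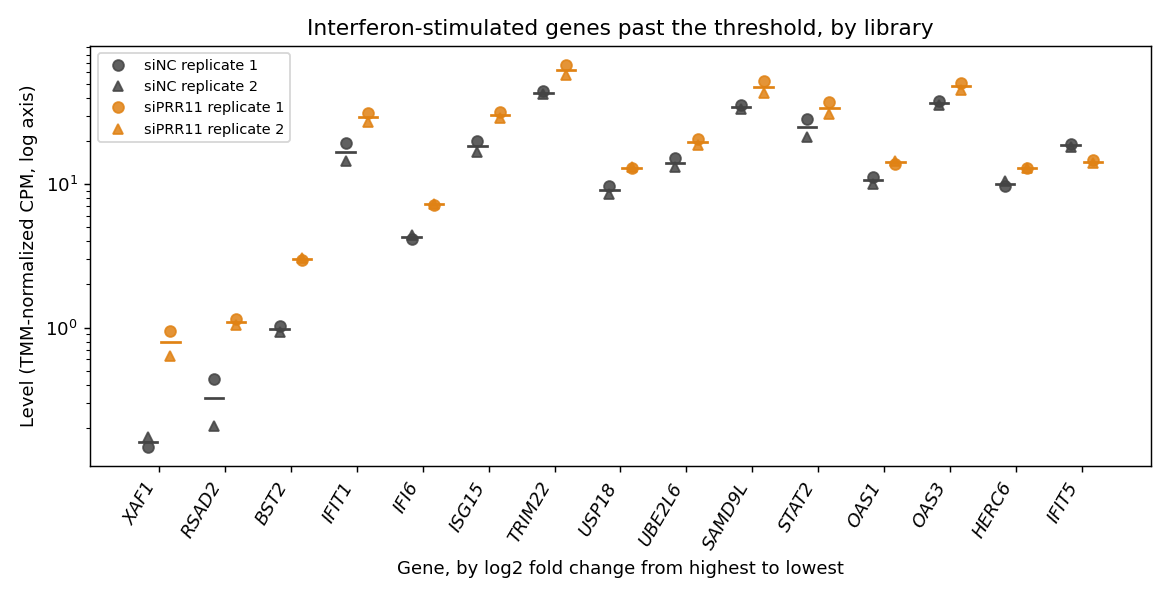
TMM-normalized CPM (vertical log axis) is plotted for each library of the 15 genes past the threshold, with circles for replicate 1, triangles for replicate 2 and lines for the group means. Both siPRR11 libraries lie above both siNC libraries for 14 genes and below them for IFIT5, from XAF1 at 0.147 CPM to TRIM22 at 67.6 CPM.

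Several genes known for strong induction by interferon did not pass. MX1, a GTPase that traps viral nucleocapsids, was at 31.8 and 28.7 CPM in siNC and 31.8 and 35.5 CPM in siPRR11 libraries, a log2 fold change of 0.15 (standard error 0.0941). MX2, its nuclear pore relative, had between 6 and 10 counts per library. IFI44 and IFI44L, neighbours on chromosome 1, had log2 fold changes of -0.30 and -0.18, with edgeR adjusted p-values of 0.206 and 0.536. IFI27, a mitochondrial protein, had 10 and 12 counts in siNC and 24 and 16 in siPRR11 libraries. IFI16, a nuclear DNA sensor, was at 91.90 and 83.03 CPM in siNC and 83.7 and 81.2 CPM in siPRR11 libraries (log2 fold change -0.09, standard error 0.0791). IFI35 was at 23.9 and 20.7 CPM in siNC and 26.1 and 24.4 CPM in siPRR11 libraries (log2 fold change 0.17, edgeR adjusted p = 0.264). The ADP-ribosylation genes PARP9, DTX3L and PARP14 had log2 fold changes of 0.11, 0.02 and 0.14. On chromosome 3 PARP9 and DTX3L overlap, and PARP14 lies 105414 bases from DTX3L. With all 4 libraries and no block none of the 3 passed at an unadjusted p-value under 0.05 by edgeR, DESeq2 or limma. The log2 fold change of PARP9 was 0.26 without siPRR11 replicate 2 and -0.07 without siPRR11 replicate 1. PARP14 was at 101 and 103 CPM in siNC and 119 and 107 CPM in siPRR11 libraries, and DTX3L was at 48.0 and 47.2 CPM in siNC and 51.3 and 45.4 CPM in siPRR11 libraries. LGALS3BP, a secreted glycoprotein with a mean of 90.4 RPKM in siNC, was at 339 and 320 CPM in siNC and 355 and 356 CPM in siPRR11 libraries, a log2 fold change of 0.11 (standard error 0.0707). PLSCR1, ISG20 and EPSTI1 had log2 fold changes of -0.01, -0.20 and 0.23 with edgeR adjusted p-values of 0.367 or higher.

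Starting levels spread widely. In siNC cells 12 of the 43 genes had a mean under 1 RPKM and 7 had a mean of at least 10 RPKM, led by LGALS3BP, IFITM3 (33.4 RPKM), IFIT3 (20.4 RPKM) and ISG15 (19.2 RPKM). Of these 7 genes ISG15 rose and the other 6 did not pass by edgeR. The median siNC level was 4.13 RPKM for the 14 genes that rose and 4.42 RPKM for the 27 that did not pass. Neighbours did not always share a call. Among the listed genes 14 pairs lie next to each other within 200 kb, and in 5 pairs 1 gene was past the threshold and the other was not. In 2 pairs both were past it, OAS1 with OAS3 in the same direction and IFIT1 with IFIT5 in opposite directions.

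The libraries of a group differed from each other too. Of the 42 genes, 31 were higher in siNC replicate 1 than in siNC replicate 2, and 27 were higher in siPRR11 replicate 1 than in siPRR11 replicate 2. The shares over all genes are not given here, so these counts cannot be called particular to the list. With each library left out in turn, all 14 genes that rose kept a positive log2 fold change. Both siPRR11 libraries lay above both siNC libraries for each of these genes, so the sign could hardly change. Fits with a library left out leave a lone library in a group and assume that it varies like the other group.

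**Figure D5:**
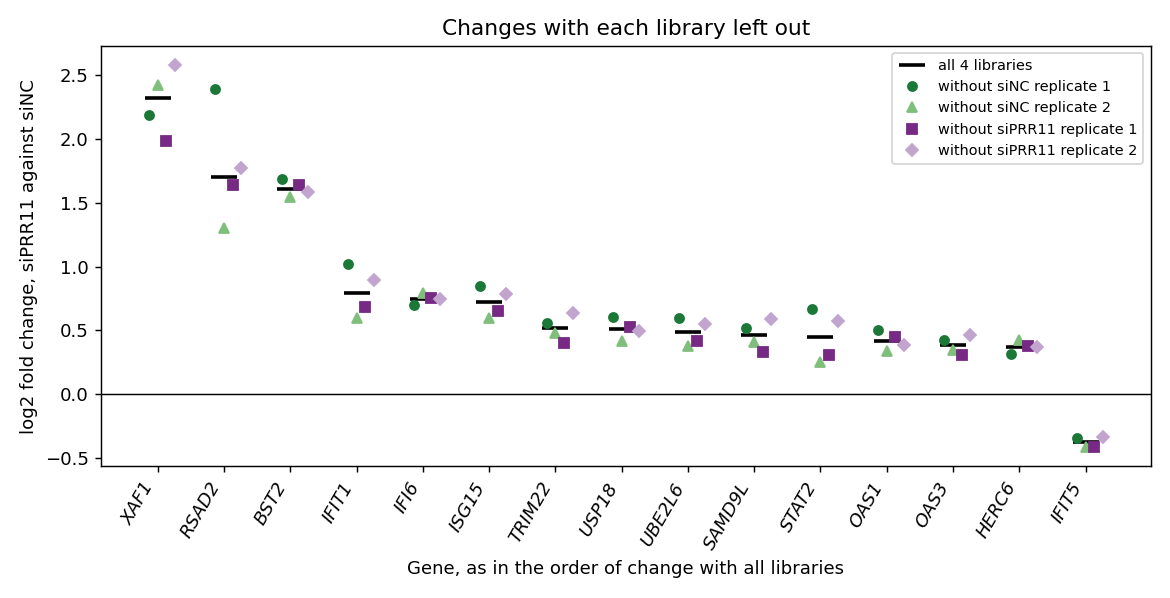
The log2 fold change of siPRR11 against siNC (vertical axis) is plotted for the 15 genes past the threshold with all 4 libraries (black bars) and with each library left out (symbols). No gene crosses 0, which the lack of overlap between the groups of each gene made nearly certain. RSAD2 spreads most, from 1.31 to 2.39.

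The genes that carry the interferon signal were followed in a list of 29 ligands, receptors, kinases, factors and inhibitors. Rows of 21 were used and 19 were tested, of which 3 rose and 2 fell (26.3% of those tested, against 16.7% of all genes). Of the 10 interferon ligands, rows of IFNE and IFNL3 were used, with 0 and 2 counts over all libraries. The other 8 ligands were looked up by current and older names, and no row was matched to them. With all 4 libraries none of the 6 receptor genes passed in the main edgeR fit. IFNAR1 passed without a filter on low counts, and IFNAR1 and IFNGR1 passed with the replicate number as a term. At an unadjusted p-value under 0.05, 2 receptor genes were lower by edgeR, where 3443 of all 21630 genes tested were. IFNAR1 was at 26.0 and 23.0 CPM in siNC and 22.1 and 17.5 CPM in siPRR11 libraries, a log2 fold change of -0.31 (edgeR adjusted p = 0.0995) that passed without siNC replicate 2 (-0.39) or without siPRR11 replicate 1 (-0.48). IFNGR1 (-0.25) also passed as lower without siNC replicate 2 (-0.31), and IFNGR2 (0.14) passed as higher without siNC replicate 1 (0.36). JAK1 rose by 0.28 (standard error 0.0715, edgeR adjusted p = 0.0194), from 208 and 221 CPM in siNC to 259 and 261 CPM in siPRR11 libraries, a call lost without siPRR11 replicate 1 (0.29) or siPRR11 replicate 2 (0.28), where its size was kept.

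IRF7, the factor that amplifies type I interferon production and is itself interferon-induced, was at 1.15 and 1.14 CPM in siNC and 2.50 and 2.53 CPM in siPRR11 libraries. Its rise of 1.13 (standard error 0.195, edgeR adjusted p = 0.00229) was 2.20-fold. SOCS1, a feedback inhibitor of JAK kinases that interferon also induces, was at 0.416 and 0.379 CPM in siNC and at 1.61 and 1.45 CPM in siPRR11 libraries, and it rose by 1.93 (standard error 0.269, edgeR adjusted p = 0.000662). STAT3, which serves IL-6 family signals, fell by 0.62 (standard error 0.1, edgeR adjusted p = 0.00164), from 105 and 92.3 CPM to 70.3 and 58.1 CPM. PTPN2, a phosphatase that acts on JAKs and STATs, fell by 0.35 (standard error 0.0984, edgeR adjusted p = 0.0293), a call lost without siNC replicate 2 and without either siPRR11 library.

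Genes outside the list that lean toward interferon gamma gave 1 rise and 1 fall. Of 12 such genes, rows of 10 were used and 7 were tested, of which 6 had a positive log2 fold change (against 50.3% of all genes) and 28.6% passed (against 16.7%). GBP3 rose by 0.31 (edgeR adjusted p = 0.0221) and GBP2 fell by 0.34 (edgeR adjusted p = 0.0474). GBP3, a guanylate-binding protein, was at 54.83 and 50 CPM in siNC and 66.5 and 63.5 CPM in siPRR11 libraries. Its relative GBP2 was at 25.85 and 21.28 CPM in siNC and 18.9 and 18.4 CPM in siPRR11 libraries. The chemokines CXCL10 and CXCL11, with 3 and 16 counts over all libraries, were too low to be tested. The GBP3 call was lost without siNC replicate 2 or either siPRR11 library, and the GBP2 call without siNC replicate 1 or either siPRR11 library.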

How the data were processed

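RNA-seq was performed on ACHN cells transfected with siNC or siPRR11 (2 libraries each, groups from the sample labels). The authors trimmed reads (Trimmomatic 0.36 in the submitters' processing notes), mapped them with STAR to GRCh38 and obtained gene counts from featureCounts (Subread 1.5.1). They deposited raw counts and RPKM values, which equal count over exonic length and column total to within 3.08e-06%. The paper describes a stranded library preparation. The annotation release and the strand setting of the counting are not given in the sources used here.

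Counts were tested with edgeR 4.0.16 (R 4.3.3, TMM, filterByExpr, condition only), as the study used edgeR. The standard error is the size of the log2 fold change over the square root of F. Alternatives were RLE, DESeq2 1.42.0, other filters, limma 3.58.1 on log2(RPKM + pseudocount), the replicate number as a term and each library left out. The edgeR and limma steps were tested on simulated data. Replicates differed by more than sampling noise (chi-square per degree of freedom 20.8 in siNC, 14.1 in siPRR11).

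The genes and lists were chosen with earlier results of these data known. Genes past the threshold were named with all values, and of the others the pair with the highest RPKM in each role. OASL, CMPK2, IFI27, IFI44, IFI44L, PLSCR1, ISG20, EPSTI1, IFITM1, IFNAR1, IFNGR1, IFNGR2, CXCL10 and CXCL11 are named beyond this, in part after their values were seen. Some genes of these lists are not reported here by name. Promoter windows are from RefSeq.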

Additional observations from a re-analysis of the deposited data

How the results depend on the processing

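The 14 rises kept their direction in all alternatives, which the lack of overlap between their groups made likely in advance. All 14 passed with RLE, with DESeq2, without a filter and with at least 10 counts in every library. With limma 8 passed on log2(RPKM + 1) and 10 on log2(RPKM + 0.1). IFIT1, IFI6, ISG15, USP18, TRIM22, RSAD2 and BST2 passed in every alternative. The count of interferon-stimulated genes higher was 9 with limma on log2(RPKM + 1) and 8 to 15 with each library left out. The count lower was 0 with limma at either pseudocount (1 at an unadjusted p-value under 0.05) and 0 to 1 with each library left out. The median log2 fold change was 0.19 with limma on log2(RPKM + 1) and 0.20 to 0.27 with each library left out. Pathway genes higher numbered 2 to 6 with each library left out. Pathway genes lower numbered 4 without a filter, 4 at an unadjusted p-value under 0.05, 0 and 1 with limma (pseudocounts 1 and 0.1) and 1 to 4 with each library left out. Over all genes, 3110 were higher and 3443 lower at an unadjusted p-value under 0.05, against 1645 and 1977 after adjustment. With limma 1091 were higher and 684 lower (pseudocount 1), and 726 were lower with pseudocount 0.1. With each library left out 945 to 2173 were higher and 1227 to 2417 lower. The causes were not tested.

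With the replicate number as a block, 21 interferon-stimulated genes were higher and 1 lower, 5 pathway genes were lower, and 3338 of all genes were higher and 3650 lower. The labels give the numbers no shared culture or day, and the deviations of same-numbered libraries from their group means correlated at 0.165 over genes, so the numbers were not taken to pair the libraries. With 2 libraries per group, rises as small as those of HERC6 or OAS1 lie near what the test could call, and MX2, CMPK2 and IFI27 had too few counts to show a change of moderate size.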
